A study of Mus musculus with 12 samples.

Results

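The genes described here are 52 genes of sterol and fatty acid synthesis, lipid uptake, storage, oxidation and efflux, followed in sorted mouse T cells from a study of steatohepatitis, in which fat storage in the liver comes with inflammation. They were taken by symbol from a list of enzymes, regulators and carriers, and all 52 have a row among the 52459 genes of the raw count table. They comprise 4 sterol regulators, 14 sterol synthesis enzymes, 9 genes of fatty acid synthesis, 5 of lipid uptake and carriage, 11 of fatty acid activation, storage and release, 7 of fatty acid oxidation and 2 of cholesterol efflux. RNA sequencing covered 12 libraries, 2 for each of 6 groups. These were γδ T cells of WT (wild-type) mice on the MCD diet and on the control diet, CD4+ T cells of γδTCR-/- (knockout) mice on MCD and on control diet, and CD4+ T cells of WT mice on MCD and on control diet. MCD stands for methionine- and choline-deficient, a diet that makes the mouse liver store fat and become inflamed. All mice were 7 weeks old when they started their diet and stayed on it for 6 weeks. The cells were isolated by flow cytometry straight into lysis buffer. The labels name no tissue, strain, sex or exact knockout allele. They also do not say whether the 2 libraries of a group came from separate mice, so p-values measure only the spread between these libraries, which may be technical.

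Cells build cholesterol from acetyl-CoA through the mevalonate pathway. When membranes run low in sterol, the chaperone SCAP carries the transcription factor made by Srebf2 to the Golgi, where it is cut free to switch on the pathway's enzymes, and INSIG1 holds this complex back when sterol is plentiful. Cells that take up lipoprotein lipid instead break it down in lysosomes, keep it in droplets, burn it in mitochondria or export it. In T cells, dividing cells are known for raised lipid synthesis, and resting and tissue-resident memory cells for reliance on lipid uptake and oxidation.

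Total counts per library ranged from 17035638 to 23203603, of which 40.8% to 56.8% fell on mitochondrial genes. This share was 53.8% to 56.8% in γδ, 52.7% and 51.1% in knockout control and 40.8% to 43.9% in the other CD4+ libraries. Levels are given as CPM, counts divided by library size after TMM scaling, edgeR's correction for library composition. Counts of at least 10 were found for 8989 and 10125 genes in the γδ MCD libraries, 11903 and 12174 in γδ control and 12100 to 13402 in CD4+ libraries. The title of γδ MCD replicate 2 carries the codes D2 and D1, and D1 is also the code of WT MCD CD4+ replicate 1, and the labels do not say whether that library pools mice. The γδ MCD libraries also differed most between themselves. Among members with a group mean of at least 5 CPM, 25 of 31 differed over 2-fold between the 2 γδ MCD libraries, against 63.0% of all genes at that level, while 19.4% to 33.3% of members did so in the CD4+ groups. Summed markers of the γδ lineage were 2342 and 1741 CPM in γδ MCD, 3227 and 3062 CPM in γδ control and 16.04 to 307 CPM in CD4+ libraries, and those of the CD4+ lineage 50.5 to 231 CPM in γδ and 1253 to 2474 CPM in CD4+ libraries. Trdc, the δ chain constant gene, was at 0.920 to 7.93 CPM in knockout and 0.231 to 2.80 CPM in WT CD4+ T cells, so Trdc in these cells does not check the genotype. The γδ lineage sum was 16.04 and 26.3 CPM in knockout control and 227 and 307 CPM in WT control CD4+ libraries. On control diet 3 of the 4 markers, all but Trdc, were lower in knockout without overlap, beside 20.6% of all genes. Of these, 1 had an adjusted p of 0.0117 by edgeR. On MCD the sum was 83.9 and 22.2 CPM in knockout and 123 and 60.4 CPM in WT CD4+ libraries. Markers of other cell types were counted in the γδ libraries as well. The 10 macrophage and Kupffer cell markers summed to 2066 and 1532 CPM in γδ MCD, 904 and 1731 CPM in γδ control and 13.7 to 58.6 CPM in CD4+ libraries. Most of that was Lyz2, a myeloid lysozyme, with 616 to 1616 CPM in γδ libraries, and Csf1r, the macrophage growth factor receptor, with 138 to 273 CPM. Clec4f, which marks Kupffer cells, was at 0 in both γδ MCD libraries, and 2 of the 10 markers were at 0 in each. The 10 sinusoidal endothelium markers summed to 89.2 and 108 CPM in γδ MCD, 635 and 1268 CPM in γδ control and 78.2 to 159 CPM in CD4+ libraries. In bulk RNA, fewer cells of a type and less RNA per cell cannot be told apart.

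**Figure D1:**
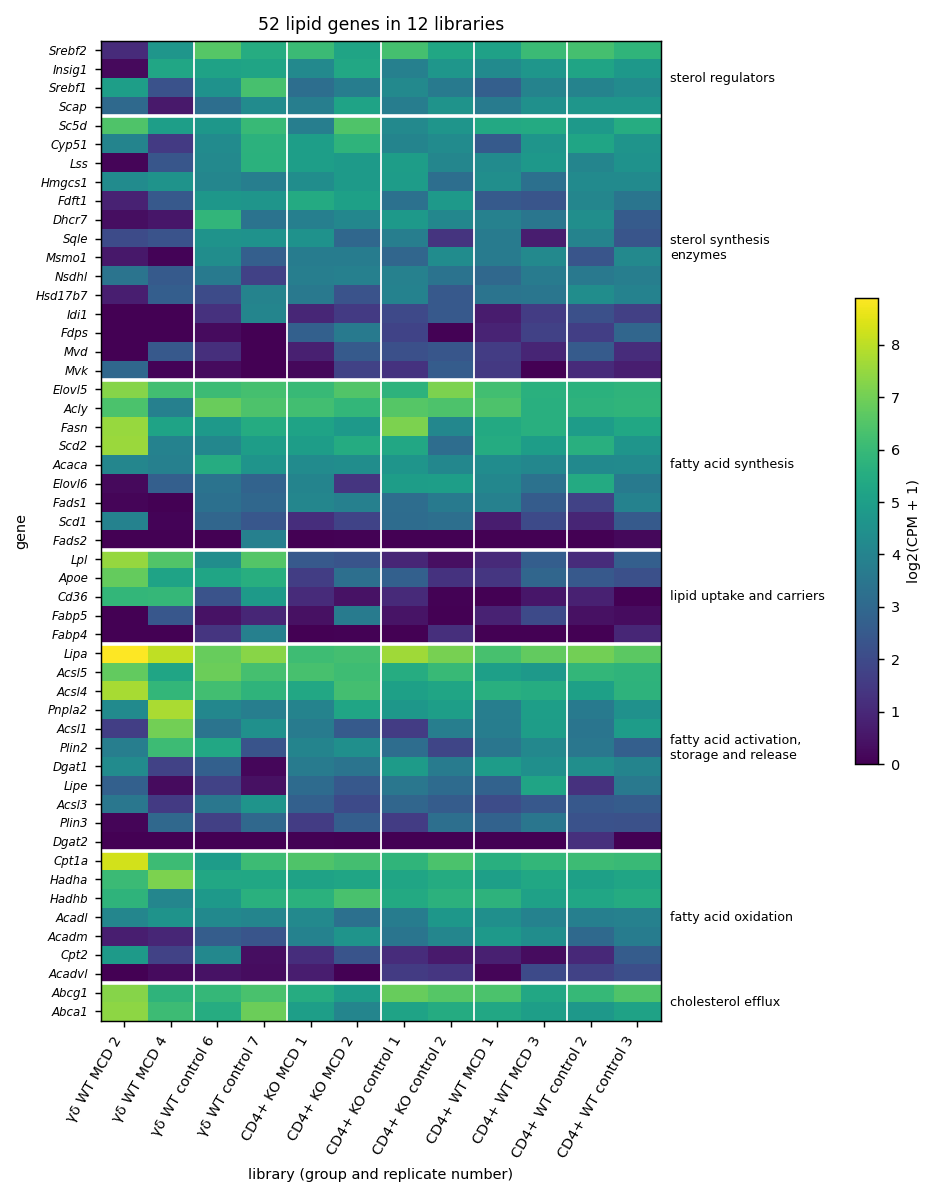
Colour gives log2(CPM + 1) of each of the 52 genes (rows, grouped by role) in each of the 12 libraries (columns, named by group and replicate number); white lines part roles and groups. The uptake genes Lpl, Apoe and Cd36 are each brighter in every γδ library than in any CD4+ library, and Dhcr7, Msmo1 and Fads1 are dark in both γδ MCD libraries.

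Per transcript length, in the deposited FPKM averaged over groups, lysosomal acid lipase Lipa had the highest level of the 52 genes at 51.7 FPKM. It was followed by the fatty acid elongase Elovl5 at 21.3, the mitochondrial carnitine transferase Cpt1a at 19.0 and the sterol exporter Abcg1 at 17.6 FPKM. Most sterol enzymes were low on this scale, between 0.590 FPKM for Mvk and 8.22 FPKM for Sc5d. Of the 52 genes, 50 had enough counts to be tested. Dgat2, which makes triglyceride, had 29 counts in WT control CD4+ replicate 2, 1 count in knockout MCD replicate 1 and 0 in the other 10 libraries. The desaturase Fads2 had 256 counts in γδ control replicate 7 and 0 to 3 elsewhere.

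Each comparison was tested by quasi-likelihood in edgeR, with p-values adjusted by the Benjamini-Hochberg method over 16218 genes and a threshold of 0.05. Calls among these genes were made in 1 comparison, γδ over CD4+ T cells of WT mice on the MCD diet. There 2 of 50 members were higher in γδ T cells, Lpl and Lipa, while 1.47% of all genes were called higher. The 3 called lower in γδ T cells were Dhcr7, Fads1 and Acadm, with 1.18% of all genes called lower. When only the 4 libraries compared were fitted, 0 of these 5 were called. Without WT MCD CD4+ replicate 1 the count was 0, without replicate 3 it was 1 (Lpl, 0.584% of all genes), without γδ MCD replicate 2 it was 11 (6.39% of all genes) and without γδ MCD replicate 4 it was 17 (12.8%). DESeq2 called 17 members and 21.1% of all genes it tested. Of the 17, 10 were higher and 7 lower in γδ T cells, beside 8.6% and 12.5% of all genes.

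Between MCD and control diet in γδ T cells edgeR called 0 members, and 0% of all genes. At an unadjusted p under 0.05 there were 4 higher and 9 lower members on MCD, beside 6.29% and 11.2% of all genes. Libraries did not overlap between the diets for 6 members higher and 16 lower on MCD, beside 11.1% and 22.1% of all genes. DESeq2 called 11 members and 16.1% of all genes it tested. Of the 11, Cpt1a, Hadha, Lipa and Pnpla2 were higher and Acadm, Dhcr7, Fads1, Fdft1, Idi1, Lss and Msmo1 lower on MCD, beside 6.14% of all genes higher and 9.96% lower. In edgeR, 8 members and 4.25% of all genes were called without γδ MCD replicate 2, and 12 members and 9.03% without replicate 4. Dhcr7 and Fads1 were called in both of these fits, in which the remaining γδ MCD library is assumed to vary like the other groups.

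**Figure D2:**
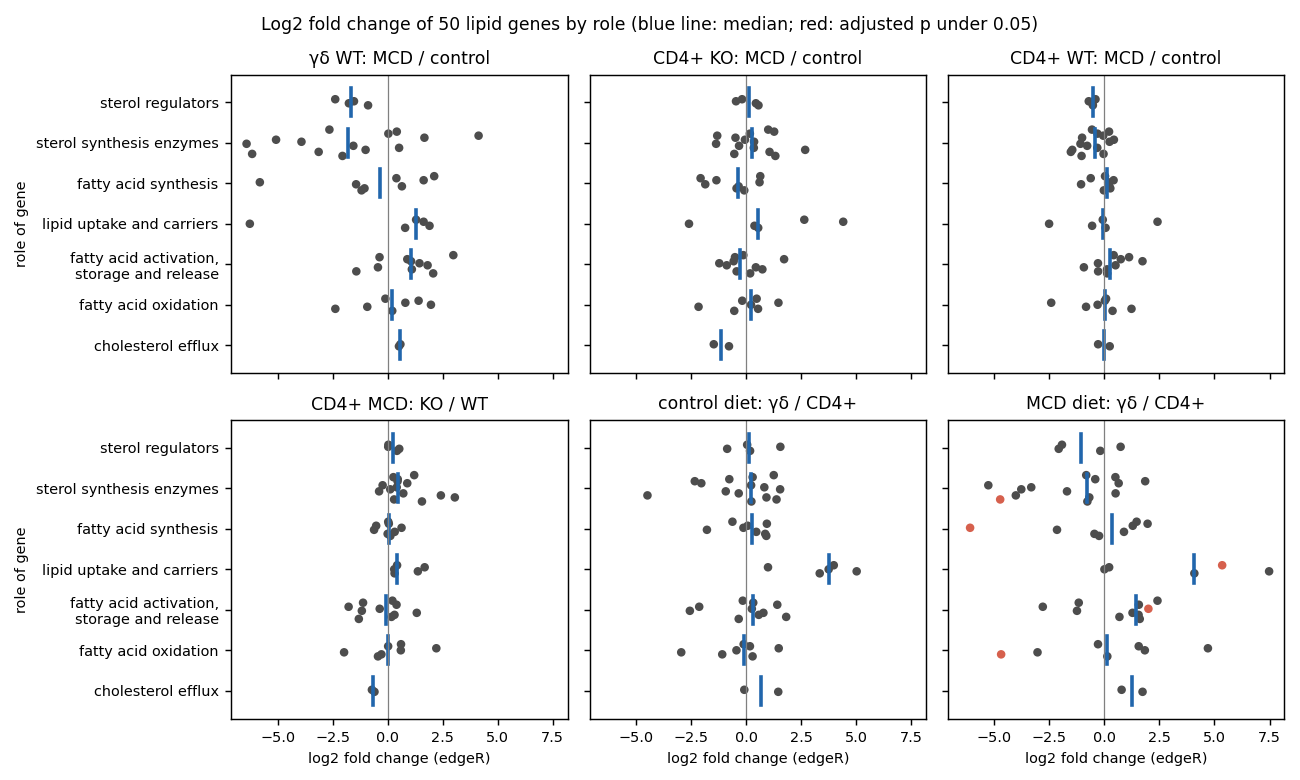
Each point is 1 of 50 tested lipid genes, placed on the x axis by edgeR's log2 fold change in 1 comparison per panel and on the y axis by role; blue lines are medians and red points have an adjusted p under 0.05. In the γδ diet panel the sterol lists have medians of -1.65 and -1.81, and all 5 red points lie in the panel of γδ over CD4+ T cells on MCD. Points of genes near 0 counts in 1 group depend on the prior count.

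Of the 52 genes, 40 were matched to the RefSeq promoter table (GRCm38.p6), among them 11 sterol enzymes and all 4 regulators. Only the first listed start of each gene was used. Several starts were listed for 6 members, and their other starts were not searched. The 250 bases upstream of the annotated start were searched on both strands for TCACNCCAC, a sterol regulatory element, and for CCAAT, the box bound by NF-Y, which is known to act beside that element. CCAAT was found in 10 of the 11 enzyme promoters (90.9%) and 3 of the 4 regulator promoters, against 34.5% of 27025 promoters, and Dhcr7 was the enzyme without it. TCACNCCAC was found only for Hmgcs1, against 1.04% of all promoters. The GC box GGGCGG, also searched, was in 11 of the 11 enzyme and 2 of the 4 regulator promoters, against 32.9% of all. The E-box CACGTG was in 2 of the 11 enzyme and 1 of the 4 regulator promoters, against 6.05% of all. A match is a description of letters and not a bound site. The sequences below show the promoter with the element, the one with the most CCAAT boxes (Mvk), the one with none (Dhcr7) and that of Lss, the cyclase that closes the sterol rings, each up to the first base of any annotated transcript start. Capitals mark TCACNCCAC and CCAAT, the second also as ATTGG on the other strand. They lie at chr13:119690101-119690350 on the plus strand, chr5:114444019-114444268 on the plus strand, chr7:143822917-143823144 on the plus strand and chr10:76531355-76531587 on the plus strand.
Hmgcs1: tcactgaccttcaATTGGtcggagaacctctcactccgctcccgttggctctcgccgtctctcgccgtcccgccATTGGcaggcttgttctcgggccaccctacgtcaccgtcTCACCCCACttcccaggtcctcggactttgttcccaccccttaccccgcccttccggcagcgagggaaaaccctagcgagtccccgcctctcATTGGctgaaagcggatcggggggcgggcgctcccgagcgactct
Mvk: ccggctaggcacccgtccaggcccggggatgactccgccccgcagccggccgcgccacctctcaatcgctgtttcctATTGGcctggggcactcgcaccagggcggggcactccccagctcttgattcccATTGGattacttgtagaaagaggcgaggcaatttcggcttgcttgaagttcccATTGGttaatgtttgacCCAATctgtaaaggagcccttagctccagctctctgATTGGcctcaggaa
Dhcr7: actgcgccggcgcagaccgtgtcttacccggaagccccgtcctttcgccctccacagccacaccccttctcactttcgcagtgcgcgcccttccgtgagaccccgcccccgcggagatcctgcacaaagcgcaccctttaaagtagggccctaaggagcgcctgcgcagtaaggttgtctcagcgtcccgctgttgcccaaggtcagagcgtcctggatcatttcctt
Lss: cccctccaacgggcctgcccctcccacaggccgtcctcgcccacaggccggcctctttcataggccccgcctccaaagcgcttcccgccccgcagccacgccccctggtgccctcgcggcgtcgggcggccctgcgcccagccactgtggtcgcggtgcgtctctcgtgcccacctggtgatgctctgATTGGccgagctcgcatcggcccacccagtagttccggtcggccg
In Hmgcs1 the element starts 137 bases before the RefSeq start (position -137).

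The 4 sterol regulators were lower on MCD than on control diet in γδ T cells by edgeR's estimate, with a median log2 fold change of -1.65 beside -0.06 over all genes, and 0 of 4 passed the test. Srebf2 had 1.16 and 24.9 CPM in γδ MCD, 92.3 and 44.7 CPM in γδ control, 66.2 and 35.7 CPM in knockout MCD, 77.5 and 38.1 CPM in knockout control, 33.3 and 66.5 CPM in WT MCD CD4+ and 76.9 and 55.4 CPM in WT control CD4+ libraries. Only the γδ MCD libraries fell below all 10 others, and they differed widely from each other. Its log2 fold change between diets in γδ T cells was -2.38 (SE 0.98, unadjusted p 0.0296, adjusted p 0.239 by edgeR). Srebf1, whose product acts mainly on fatty acid synthesis genes, had 30.6 and 3.70 CPM in γδ MCD and 22.1 and 77.6 CPM in γδ control, which overlap, and 5.55 to 18.8 CPM in CD4+ libraries. Insig1, the retention factor, had 0.165 and 37.3 CPM in γδ MCD and 33.8 and 36.0 CPM in γδ control, so 1 γδ MCD library was near 0 and the other slightly above both control libraries. In CD4+ libraries it had 13.7 to 39.9 CPM. Scap, the sterol-sensing chaperone, was non-overlapping at 7.26 and 0.537 CPM in γδ MCD and 8.34 and 18.6 CPM in γδ control, and at 12.1 to 35.2 CPM in CD4+ libraries.

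T cell markers were also lower in the γδ MCD libraries. The 6 shared by T cells, among them the CD3 chains, summed to 1485 and 1500.0 CPM in γδ MCD and 2560 and 2240.1 CPM in γδ control. Their median log2 fold change was -0.92. Of the 6, 4 were lower on MCD without overlap, as were 3 of the 4 γδ lineage markers, beside 22.1% of all genes. The γδ lineage markers had a median of -0.62. edgeR called 0 of these markers between the diets. At an unadjusted p under 0.05, 3 T cell and 1 γδ lineage markers were lower, beside 11.2% of all genes. The part of these markers' shift in the lower sterol values was not tested.

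The 14 sterol synthesis enzymes summed to 142 and 83.4 CPM in γδ MCD libraries and to 219.8 and 272 CPM in γδ control libraries. CD4+ sums were 217 and 303 CPM in knockout MCD, 186 and 158 CPM in knockout control, 149 and 162 CPM in WT MCD and 194 and 184 CPM in WT control. In γδ T cells 9 of 14 enzymes had a negative and 5 a positive log2 fold change between MCD and control diet, with a median of -1.81, and 0 passed the test. Of all genes 51.3% had a negative and 42.5% a positive value. At an unadjusted p under 0.05 were 5 lower enzymes, Idi1, Fdft1, Lss, Msmo1 and Dhcr7, which span the pathway from its isoprene units to the last reduction, beside 11.2% of all genes. Among all 8909 genes with a mean between 1.64 and 41.7 CPM, the range of the 14 enzymes, 54.5% were lower, 14.8% were lower at that p and the median was -0.21.

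Dhcr7, the reductase of the last step to cholesterol, had 0.248 and 0.470 CPM in γδ MCD and 56.6 and 9.37 CPM in γδ control. It had 13.4 and 16.5 CPM in knockout MCD, 27.2 and 16.3 CPM in knockout control, 14.1 and 10.3 CPM in WT MCD CD4+ and 20.3 and 4.81 CPM in WT control CD4+ libraries. Both γδ MCD libraries were below all 10 others. Mean Dhcr7 was 91.8-fold lower in γδ MCD than in γδ control (log2 fold change -6.16, SE 1.26, adjusted p 0.0761 by edgeR). It was 34.1-fold lower in γδ than in CD4+ T cells of WT mice on MCD and passed the test (log2 fold change -4.74, SE 1.17, adjusted p 0.0494 by edgeR). It was called in 7 of 12 fits that left out a library. On control diet the same cell types overlapped, with a log2 fold change of 1.38 (SE 1.04, adjusted p 0.625 by edgeR).

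Msmo1, the sterol C4-methyl oxidase, had 0.495 and 0.0672 CPM in γδ MCD, 19.8 and 5.42 CPM in γδ control and 4.14 to 18.9 CPM in the 8 CD4+ libraries. Its γδ MCD values were thus the lowest of the 12. The mean was 44.9-fold lower in γδ MCD than in γδ control (log2 fold change -5.07, SE 1.37, adjusted p 0.124 by edgeR). Msmo1 has 10 near-identical copies among annotated transcripts, so its reads could be split. Lss had 0.0825 and 4.17 CPM in γδ MCD, 17.2 and 50.3 CPM in γδ control and 15.4 to 31.2 CPM in CD4+ libraries, again with both γδ MCD libraries lowest. The mean was 15.9-fold lower on MCD than on control diet (adjusted p 0.165 by edgeR). Idi1, which isomerises the isoprene unit, had 0 counts in both γδ MCD libraries, 1.42 and 15.7 CPM in γδ control and 0.590 to 4.66 CPM in CD4+ libraries. At a floor of 3 counts in each library it was at least 38.0-fold lower in γδ MCD than in γδ control (adjusted p 0.121 by edgeR), and 2 near-identical copies exist. Fdft1, squalene synthase, had 0.825 and 4.57 CPM in γδ MCD and 24.98 and 24.2 CPM in γδ control (9.12-fold lower on MCD, adjusted p 0.178 by edgeR). Cyp51, which takes off the sterol's C14 methyl group, had 15.02 and 1.88 CPM in γδ MCD and 18.8 and 51.9 CPM in γδ control (4.19-fold lower, adjusted p 0.313 by edgeR). Fdft1, Cyp51, Lss and Idi1 are each overlapped on the other strand by another gene, for Fdft1 Ctsb and for Cyp51 Akap9. Reads of such a pair cannot be told apart without strand. The 16 members overlapped in this way also include Srebf1, Scap, Hmgcs1, Acsl1, Acsl5, Elovl6 and Hadha. Fdft1 also has 1 near-identical copy.

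Sqle, squalene epoxidase, had 3.14 and 3.90 CPM in γδ MCD, 22.9 and 22.3 CPM in γδ control and 0.647 to 22.4 CPM in CD4+ libraries (6.43-fold lower on MCD, adjusted p 0.346 by edgeR). With Sqle, 7 of the 14 enzymes were lower in γδ MCD than in γδ control without overlap, beside 22.1% of all genes, and 1 was higher, beside 11.1%. Sc5d, the sterol C5 desaturase, had 86.4 and 31.0 CPM in γδ MCD and 25.5 and 62.7 CPM in γδ control, overlapping ranges. Hmgcs1, the synthase that feeds the mevalonate pathway, had 18.8 and 22.6 CPM in γδ MCD and 15.9 and 13.0 CPM in γδ control, slightly higher on MCD without overlap. It was chosen here after its values were seen, because its promoter held the sterol element. Fdps, the farnesyl diphosphate synthase, was at 0 in both γδ MCD libraries and at 0.203 and 0 CPM in γδ control, with 0.0481 to 11.8 CPM in CD4+ libraries. It was thus at 4 counts or fewer in each γδ library. In 7 and 5 of the 14 enzymes the γδ MCD libraries had fewer than 10 counts, against 2 and 3 in γδ control and 0 or 1 in CD4+ libraries. Among all 16218 genes tested, 45.3% and 38.6% had fewer than 10 counts in the γδ MCD libraries, against 26.9% and 28.6% in γδ control and 19.3% to 27.0% in CD4+ libraries. What part fewer detected genes had in the lower sterol levels was not tested.

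**Figure D3:**
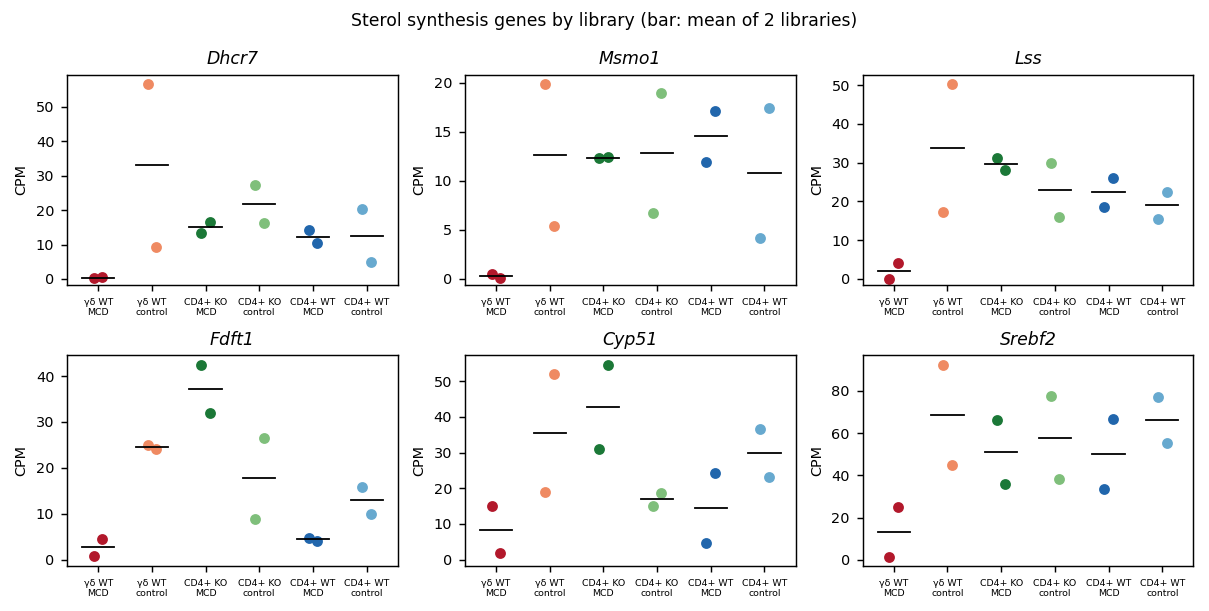
CPM (y axis, linear, 1 panel per gene) in each library of the 6 groups (x axis), with a bar at the mean of the 2 libraries. Dhcr7, Msmo1 and Lss are at or below 4.17 CPM in both γδ MCD libraries, and Fdft1 is higher in knockout MCD (42.4 and 32.1 CPM) than in WT MCD CD4+ T cells (4.72 and 4.11 CPM).

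In CD4+ T cells no sterol gene passed the test between diets. In WT mice edgeR called 0 of 50 members between MCD and control diet (0% of all genes), with 0 at an unadjusted p under 0.05, where 0.943% of all genes were higher and 1.19% lower, and DESeq2 called 0. Of the 18 sterol regulators and enzymes 15 were on the lower side on MCD, as were 49% of all genes, with a median log2 fold change of -0.54 beside 0.00 over all genes. The largest non-overlapping one was Fdft1, with 4.72 and 4.11 CPM in WT MCD and 15.9 and 9.93 CPM in WT control CD4+ T cells (log2 fold change -1.53, SE 0.96, adjusted p 1 by edgeR). Hsd17b7, the sterol 3-ketoreductase, had 9.73 and 10.2 CPM in WT MCD and 19.8 and 14.6 CPM in WT control (adjusted p 1 by edgeR).

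In knockout CD4+ T cells edgeR again called 0 members between diets, beside 0.0308% of all genes higher and 0.00617% lower on MCD, and DESeq2 called 0. At an unadjusted p under 0.05 were 1 higher member, Lpl, and 2 lower, Lipa and Abcg1, with 3.82% and 2.24% of all genes. Of the 18 sterol genes 10 were on the higher side, a share near the 51% of all genes, with a median of 0.26 beside 0.03 over all genes. Cyp51 had 31.1 and 54.6 CPM in knockout MCD and 15.2 and 18.8 CPM in knockout control (log2 fold change 1.33, SE 1.01, adjusted p 0.866 by edgeR). Fdps had 5.62 and 11.8 CPM in knockout MCD and 2.49 and 0.0481 CPM in knockout control (6.86-fold higher, adjusted p 0.865 by edgeR). The difference between the genotypes in their diet response was tested as an interaction, in which 0 members were called by edgeR or DESeq2 and 0 had an unadjusted p under 0.05, beside 2.85% of all genes higher and 1.48% lower. Of the 18 sterol genes 14 were on the positive side there, as were 51.5% of all genes, median 0.51 beside 0.05 over all genes.

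Knockout and WT CD4+ T cells were also compared within each diet. On MCD edgeR called 0 members (0% of all genes), and 2 had an unadjusted p under 0.05, both higher in knockout, beside 1.13% of all genes higher and 0.943% lower. DESeq2 called 0. Of the 18 sterol genes 16 were on the higher side in knockout cells, as were 49.2% of all genes, median 0.43 beside 0.00 over all genes. Fdft1 had 42.4 and 32.1 CPM in knockout MCD and 4.72 and 4.11 CPM in WT MCD CD4+ T cells, without overlap. This was 8.44-fold (log2 fold change 3.05, SE 1.02, unadjusted p 0.0102, adjusted p 1 by edgeR). The other was the acyl-CoA synthetase Acsl5, with 78.1 and 69.5 CPM in knockout MCD and 31.9 and 27.1 CPM in WT MCD (2.50-fold, unadjusted p 0.0266, adjusted p 1 by edgeR). On control diet 0 members were called by edgeR or DESeq2, beside 0.00617% of all genes higher and 0.0185% lower in knockout. There 0 members were higher and 1 lower in knockout at an unadjusted p under 0.05, beside 1.23% and 2.79% of all genes. It was Lpl, with 0.926 and 0.288 CPM in knockout and 1.20 and 5.55 CPM in WT. The 18 sterol genes had a median of -0.11 beside -0.03 over all genes on this diet. These comparisons share libraries with the diet comparisons above. Averaged over both genotypes, edgeR and DESeq2 called 0 members between MCD and control diet in CD4+ T cells, beside 0.037% of all genes higher and 0% lower on MCD in edgeR. At an unadjusted p under 0.05 were 0 higher and 3 lower members, Fabp4, Lipa and Abcg1, beside 3.57% and 2.51% of all genes.

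Genes of fatty acid synthesis were split in γδ T cells, with 4 of 8 tested on each side between MCD and control diet and a median of -0.33. Fads1, the delta-5 desaturase of long polyunsaturated fatty acids, had 0.0825 and 0 CPM in γδ MCD and 8.80 and 6.82 CPM in γδ control. In CD4+ T cells it had 15.9 and 13.8 CPM in knockout MCD, 8.09 and 11.3 CPM in knockout control, 14.1 and 5.08 CPM in WT MCD and 2.39 and 14.6 CPM in WT control. It was thus near 0 only in γδ MCD, where both libraries held 1 count in all. In γδ over CD4+ T cells of WT mice on MCD it fell by 6.10 on the log2 scale (SE 1.41, adjusted p 0.0398 by edgeR), a ratio of WT CD4+ to γδ levels of 255 with a 95% counting interval of 45.5 to 10105. Between diets in γδ T cells the ratio of control to MCD levels was 212, counting interval 37.7 to 8391, and the test was not passed (adjusted p 0.0936 by edgeR).

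The more abundant synthesis genes did not move together. Acly, which makes cytosolic acetyl-CoA, had 82.6 and 13.8 CPM in γδ MCD, 117 and 83.7 CPM in γδ control and 48.6 to 94.1 CPM in CD4+ libraries. Fasn, fatty acid synthase, had 185 and 34.7 CPM in γδ MCD and 27.0 and 43.7 CPM in γδ control, with the high value in γδ MCD replicate 2. In CD4+ libraries Fasn had 16.6 to 142 CPM. Elovl5 had 153 and 72.8 CPM in γδ MCD and 67.3 and 77.3 CPM in γδ control, which overlap. In knockout CD4+ T cells the elongase Elovl6 had 15.1 and 1.56 CPM on MCD and 30.3 and 30.5 CPM on control diet (adjusted p 0.851 by edgeR). The desaturase Scd1 had 1.24 and 2.48 CPM in knockout MCD and 7.80 and 8.46 CPM in knockout control (adjusted p 0.896 by edgeR).

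The uptake genes Lpl, Cd36 and Apoe set γδ libraries apart from CD4+ libraries on both diets. The 5 genes summed to 350.4 and 188 CPM in γδ MCD, 62.5 and 180.1 CPM in γδ control and 3.13 to 24.9 CPM in CD4+ libraries. Lpl, the lipase that frees fatty acids from lipoproteins, had 180.4 and 88.3 CPM in γδ MCD and 19.6 and 90.2 CPM in γδ control. In CD4+ T cells it had 4.65 and 4.002 CPM in knockout MCD, 0.926 and 0.288 CPM in knockout control, 1.08 and 5.31 CPM in WT MCD and 1.20 and 5.55 CPM in WT control. Every γδ library was above every CD4+ library, while the γδ diets overlapped. On MCD Lpl rose 42.0-fold in γδ over CD4+ T cells of WT mice (log2 fold change 5.35, SE 1.15, adjusted p 0.0296 by edgeR). It was called in 11 of 12 fits without a library. On control diet it was 16.3-fold higher in γδ T cells and did not pass (log2 fold change 3.98, SE 1.08, adjusted p 0.163 by edgeR).

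Cd36, a fatty acid and lipoprotein scavenger receptor, had 58.7 and 60.3 CPM in γδ MCD, 3.82 and 27.9 CPM in γδ control and 0 to 1.15 CPM in the 8 CD4+ libraries. It was higher in γδ MCD than in γδ control without overlap, 3.75-fold on the means (log2 fold change 1.90, SE 1.72, adjusted p 0.578 by edgeR). Against WT CD4+ T cells on MCD its log2 fold change was 7.48 (SE 2.14, adjusted p 0.0807 by edgeR). Apoe, the lipoprotein ligand, had 111 and 34.7 CPM in γδ MCD, 37.1 and 47.2 CPM in γδ control and 1.49 to 8.42 CPM in CD4+ libraries (γδ over CD4+ on MCD 17.4-fold, adjusted p 0.0678 by edgeR). Fabp4, a fatty acid carrier of adipocytes, macrophages and capillary endothelium, was at 0 in both γδ MCD libraries and at 1.58 and 13.8 CPM in γδ control, at least 34.3-fold lower on MCD (adjusted p 0.234 by edgeR). Fabp5, the related carrier, stayed between 0 and 12.1 CPM in all 12 libraries. On control diet all 5 genes were higher in γδ than in WT CD4+ T cells without overlap, beside 20.1% of all genes. On MCD 3 of 5 were, Lpl, Cd36 and Apoe, beside 14.5% of all genes. For Fabp5 the control diet result rests on few counts, 7 and 17 in γδ against 7 and 5 in WT CD4+ libraries. On control diet edgeR called 0 of 50 members in γδ over CD4+ T cells, beside 0.45% of all genes higher and 0.203% lower. At an unadjusted p under 0.05 were 4 higher and 1 lower, beside 5.4% and 5.51% of all genes, and DESeq2 called 3, Apoe, Cd36 and Lpl, and 6.85% of all genes.

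**Figure D4:**
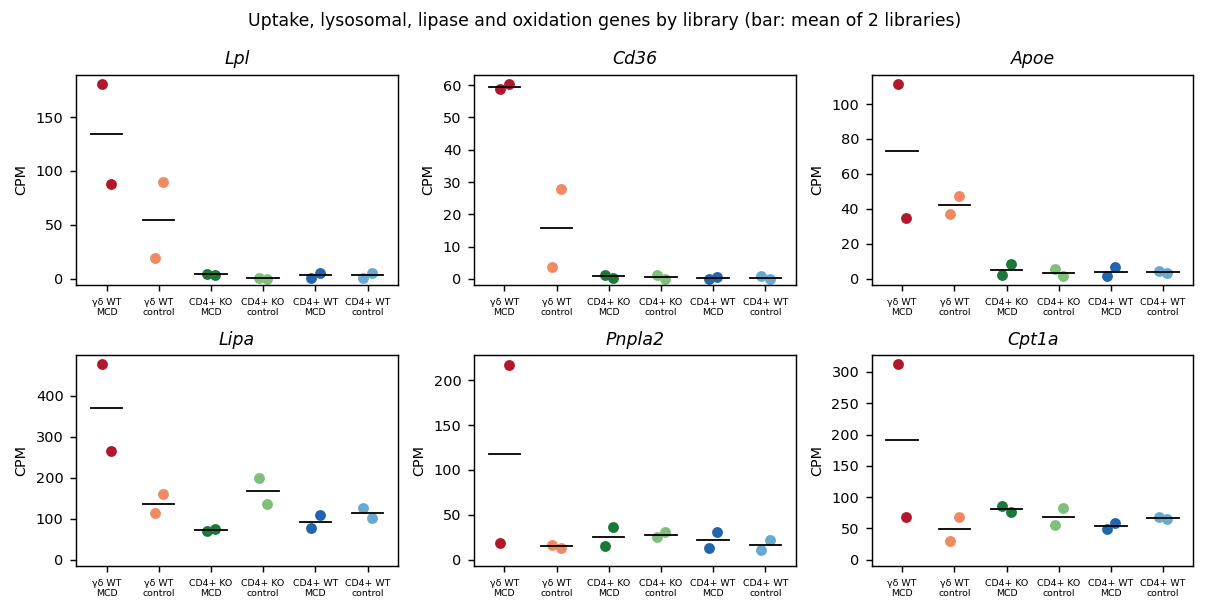
CPM (y axis, linear, 1 panel per gene) in each library of the 6 groups (x axis), with a bar at the mean of the 2 libraries. Lpl, Cd36 and Apoe are above every CD4+ library in all 4 γδ libraries, and Pnpla2 and Cpt1a each have 1 γδ MCD library far above the other (217 against 18.3 CPM, and 312 against 68.6 CPM).

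Macrophages are known for strong Lpl, Cd36 and Apoe expression, and the summed macrophage markers, like these genes, were higher in every γδ than in every CD4+ library. The marker sum was 2066 CPM in γδ MCD replicate 2 and 1532 CPM in replicate 4, where the uptake sum was 350.4 and 188 CPM. It was 904 CPM in γδ control replicate 6 and 1731 CPM in replicate 7, where the uptake sum was 62.5 and 180.1 CPM. Within the list the diets differed in both directions, with 4 of 10 markers on the higher and 6 on the lower side in γδ MCD, a median log2 fold change of -0.46 and 0 called by edgeR. Without overlap 1 was higher, Csf1r, and 4 were lower, Clec4f, Cd5l, C1qb and C1qc, beside 11.1% and 22.1% of all genes. The complement gene C1qb had 10.4 and 12.6 CPM in γδ MCD and 53.3 and 49.2 CPM in γδ control, and C1qc had 5.61 and 19.0 CPM in γδ MCD and 45.4 and 115.5 CPM in γδ control, while Cd36 was higher on MCD. Endothelial markers moved with Fabp4: Kdr, the endothelial growth factor receptor, was at 0 in both γδ MCD libraries and at 45.3 and 37.6 CPM in γδ control. The 8 neutrophil and monocyte markers summed to 203 and 314 CPM in γδ MCD, 65.3 and 96.8 CPM in γδ control and 1.93 to 27.2 CPM in CD4+ libraries. The 10 hepatocyte markers summed to 63.1 and 8.13 CPM in γδ MCD, 46.6 and 57.6 CPM in γδ control and 0.323 to 32.0 CPM in CD4+ libraries. The part of these cells in the γδ values of lipid genes was not tested.

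**Figure D5:**
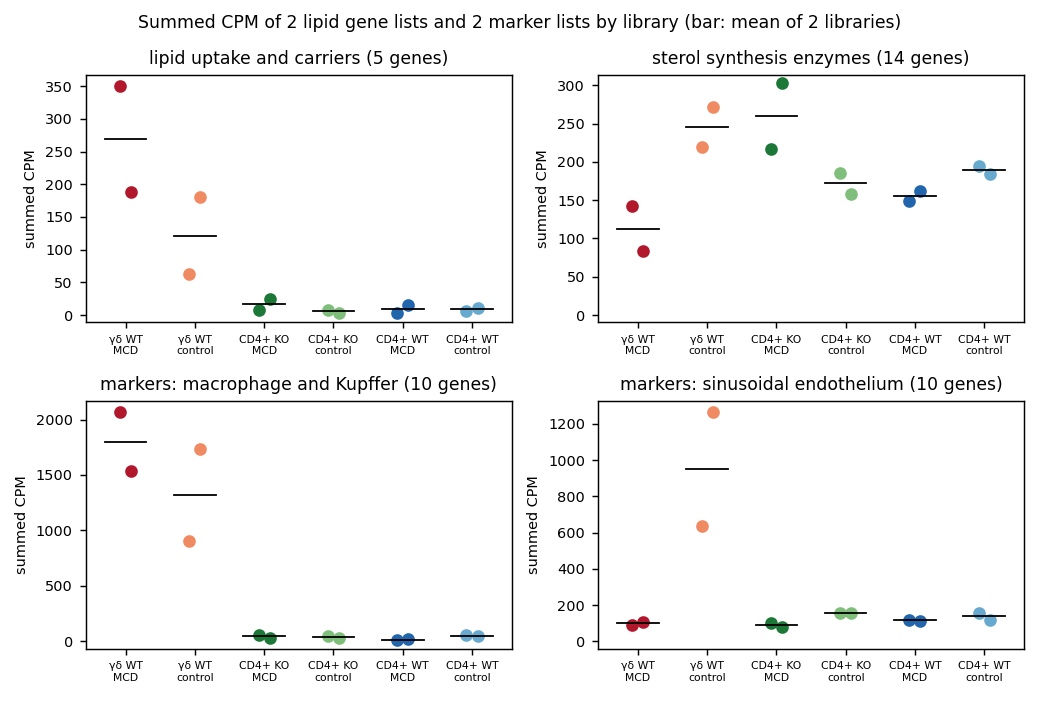
Summed CPM (y axis, linear) of the 5 uptake and carrier genes, the 14 sterol synthesis enzymes, the 10 macrophage and Kupffer cell markers and the 10 sinusoidal endothelium markers in each library of the 6 groups (x axis), with a bar at the mean of the 2 libraries. Uptake genes and macrophage markers are both far higher in the 4 γδ libraries than in the 8 CD4+ libraries, and endothelial markers are highest in the γδ control libraries at 635 and 1268 CPM.

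Genes of fatty acid activation, storage and release were mostly higher in γδ T cells on MCD than on control diet, 7 of 10 tested, beside 42.5% of all genes. Their median log2 fold change was 1.08, beside -0.06 over all genes, and 0 passed the test. Without overlap 2 of the 10 were higher, beside 11.1% of all genes. The list summed to 866 and 783 CPM in γδ MCD, 392 and 359 CPM in γδ control and 238 to 359.9 CPM in CD4+ libraries. Different genes made up the γδ MCD sums. Acsl1 had 26 counts in replicate 2 and 1894 in replicate 4, Pnpla2 had 222 and 3234, and Acsl4 had 2579 and 867. Lipa, which frees cholesterol and fatty acids from esters in lysosomes, had 478 and 264 CPM in γδ MCD and 114 and 159.5 CPM in γδ control. In CD4+ T cells it had 69.0 and 75.3 CPM in knockout MCD, 199.9 and 136 CPM in knockout control, 77.8 and 108 CPM in WT MCD and 127 and 101 CPM in WT control. The γδ MCD libraries were the highest of all 12. On MCD Lipa rose 3.99-fold in γδ over CD4+ T cells of WT mice (log2 fold change 1.997, SE 0.39, adjusted p 0.0212 by edgeR). Between diets in γδ T cells it was 2.72-fold higher on MCD and did not pass (log2 fold change 1.44, SE 0.38, adjusted p 0.120 by edgeR). In knockout CD4+ T cells it was 2.33-fold lower on MCD without overlap (log2 fold change -1.22, SE 0.38, adjusted p 0.584 by edgeR). Macrophages also express Lipa. Their markers summed to 2066 and 1532 CPM in γδ MCD and to 904 and 1731 CPM in γδ control libraries. In CD4+ libraries the marker sum was 13.7 to 58.6 CPM. The part of macrophages in the Lipa values was not tested.

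Pnpla2, the droplet triglyceride lipase, had 18.3 and 217 CPM in γδ MCD and 16.5 and 13.2 CPM in γδ control, and 11.3 to 36.4 CPM in CD4+ libraries. Its γδ MCD mean of 118 ± 141 CPM (SD, n = 2) rests on replicate 4 (log2 fold change 2.98, SE 0.97, adjusted p 0.177 by edgeR). Acsl4, which activates arachidonic acid, had 213 and 58.2 CPM in γδ MCD and 72.5 and 54.2 CPM in γδ control, with replicate 2 the high library. Acsl5 had 107 and 36.7 CPM in γδ MCD and 119 and 75.9 CPM in γδ control, which overlap. The droplet coat gene Plin2 had 15.3 and 20.5 CPM in knockout MCD and 8.04 and 2.64 CPM in knockout control (log2 fold change 1.73, SE 1.14, adjusted p 0.816 by edgeR). In γδ T cells Plin2 overlapped between diets, with 13.1 and 67.5 CPM on MCD and 39.5 and 3.95 CPM on control diet. Dgat1, which makes triglyceride, had 29.0 and 20.8 CPM in WT MCD and 20.0 and 15.1 CPM in WT control CD4+ T cells (adjusted p 1 by edgeR). In γδ T cells Dgat1 was lower than in WT CD4+ T cells on control diet, at 5.70 and 0.108 CPM (adjusted p 0.492 by edgeR). The droplet protein Plin3 had 5.90 and 10.3 CPM in WT MCD and 3.68 and 3.64 CPM in WT control CD4+ T cells (adjusted p 1 by edgeR). The acyl-CoA synthetase Acsl1 had 12.2 and 4.78 CPM in knockout MCD and 12.6 and 29.8 CPM in WT MCD CD4+ T cells (adjusted p 1 by edgeR). In the main edgeR fit no gene of this paragraph passed the test in any comparison. DESeq2 called Pnpla2 higher on MCD in γδ T cells. It also called Pnpla2 and Acsl4 higher in γδ than in CD4+ T cells of WT mice on MCD.

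Fatty acid oxidation genes did not share a direction in γδ T cells, with 4 of 7 higher and 3 lower on MCD than on control diet and a median of 0.21. Acadm, the medium-chain acyl-CoA dehydrogenase, had 0.660 and 0.941 CPM in γδ MCD and 5.14 and 4.06 CPM in γδ control. In CD4+ T cells it had 14.5 and 23.6 CPM in knockout MCD, 10.1 and 15.9 CPM in knockout control, 26.7 and 19.8 CPM in WT MCD and 7.27 and 12.4 CPM in WT control. All 4 γδ libraries were below all 8 CD4+ libraries. On MCD Acadm fell by 4.69 on the log2 scale in γδ over CD4+ T cells of WT mice (SE 1.08, adjusted p 0.0398 by edgeR), 29.0-fold on the means, and it was called in 4 of 12 fits without a library. Between diets in γδ T cells it was 5.75-fold lower on MCD (adjusted p 0.234 by edgeR).

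Cpt1a, which commits fatty acids to mitochondrial import, had 312 and 68.6 CPM in γδ MCD, 29.2 and 68.3 CPM in γδ control and 48.4 to 85.5 CPM in CD4+ libraries. Only γδ MCD replicate 2 lay clearly above the CD4+ range (γδ diets, log2 fold change 1.96, SE 0.62, adjusted p 0.166 by edgeR). Hadha, the alpha subunit of the trifunctional enzyme, had 65.7 and 140.1 CPM in γδ MCD and 39.2 and 38.5 CPM in γδ control, with 31.3 to 43.2 CPM in CD4+ libraries. Both γδ MCD libraries were above the other 10 (2.65-fold between diets, adjusted p 0.218 by edgeR). Hadhb, its beta subunit, had 54.2 and 15.9 CPM in γδ MCD and 26.6 and 48.9 CPM in γδ control, overlapping values. Levels of the partner subunits thus differed in order among the γδ libraries, of which the MCD pair scattered widely for most genes. Cpt2, the inner-membrane transferase, had 27.8 and 2.42 CPM in γδ MCD and 0.737 and 0.231 CPM in WT MCD CD4+ libraries (31.2-fold, adjusted p 0.192 by edgeR).

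The cholesterol exporters Abcg1 and Abca1 are switched on by sterol-sensing LXR receptors and are high in lipid-laden macrophages. Abca1 had 167 and 67.4 CPM in γδ MCD, 44.4 and 119.8 CPM in γδ control and 15.8 to 44.1 CPM in CD4+ libraries. All 4 γδ libraries were above the 8 CD4+ libraries, the lowest by little, and 0 comparisons passed (γδ over CD4+ T cells of WT mice on MCD, log2 fold change 1.73, SE 0.63, adjusted p 0.144 by edgeR). Abcg1 had 155 and 54.4 CPM in γδ MCD and 60.02 and 80.2 CPM in γδ control, which overlap. In knockout CD4+ T cells Abcg1 was lower on MCD without overlap, at 44.3 and 29.5 CPM against 112 and 92.4 CPM on control diet (log2 fold change -1.47, SE 0.55, adjusted p 0.775 by edgeR). In WT CD4+ T cells it had 82.2 and 39.3 CPM on MCD and 61.8 and 86.5 CPM on control diet, which overlap.

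The diet response of γδ and WT CD4+ T cells was compared in an interaction test. edgeR called 0 members (0% of all genes), while 2 had an unadjusted p under 0.05 on the positive side and 6 on the negative side, beside 3.47% and 7.1% of all genes. The 6 were Idi1, Lss, Msmo1, Dhcr7, Fads1 and Acadm, and the 2 were Lipa and Cpt1a. DESeq2 called 5 of them, Acadm, Dhcr7, Fads1, Idi1 and Msmo1, and 5.06% of all genes. Over the 18 sterol regulators and enzymes the median interaction was -0.92 beside -0.16 over all genes. These 8 genes are among those already listed for the γδ diet comparison, which shares its 4 γδ libraries with this test.

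A wider list of 45 other genes of the same pathways was tested for 38 of them. In γδ over CD4+ T cells of WT mice on MCD 1 of them rose and 1 fell, both sterol genes, beside 1.47% of all genes called higher and 1.18% lower, so the counts are near the background. Npc1, which moves cholesterol out of lysosomes, had 221 and 314 CPM in γδ MCD and 69.0 and 78.0 CPM in WT MCD CD4+ T cells (log2 fold change 1.86, SE 0.40, adjusted p 0.0296 by edgeR). Insig2, the second retention factor of the sterol sensor, had 0.0825 and 0.134 CPM in γδ MCD and 11.6 and 13.3 CPM in WT MCD CD4+ T cells (log2 fold change -5.89, SE 1.29, adjusted p 0.0313 by edgeR), a ratio of WT CD4+ to γδ levels of 112 with a 95% counting interval of 38.1 to 544. In γδ control it had 13.99 and 7.09 CPM. In the other comparisons 0 of the 38 were called by edgeR. Their medians between diets in γδ T cells were -0.30 for the 18 sterol genes and -0.17 for the 20 fatty acid and storage genes. These lie closer to the -0.06 of all genes than the -1.81 of the 14 enzymes. The 18 also hold genes of cholesterol transport such as Npc1, so their median does not describe synthesis genes alone. Among the 18, 2 were higher and 4 lower on MCD at an unadjusted p under 0.05 by edgeR, beside 6.29% and 11.2% of all genes.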

How the data were processed

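RNA of sorted γδ and CD4+ T cells was sequenced in 12 libraries, put in 6 groups of 2 from the labels. Per the submitters' processing notes, bcl2fastq, STAR, featureCounts and DESeq2 were used on mm10 (GRCm38), with no versions. Strand handling is not given in the sources used here. The authors deposited raw counts per gene, which were tested, and FPKM values, which served for levels between genes and as an alternative. The deposited FPKM were not scaled by the raw totals but followed a library scaling factor.

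After filterByExpr with at least 10 counts and a total of at least 15, 16218 genes remained. One model of the 6 groups over the 12 libraries was fitted in edgeR 4.0.16 under R 4.3.3 (TMM, quasi-likelihood test, 2-sided, Benjamini-Hochberg over all genes, prior count 2). The standard error (SE) is the log2 fold change divided by the square root of F. Folds are ratios of mean CPM where both groups had more than 3 counts. For a group at 0 counts the fold was taken against 3 counts per library, as a lower bound. Between 1 and 3 counts, the ratio is that of summed counts over summed library sizes after TMM scaling, with an exact 95% interval. Both cover counting error only, and 3 counts were 0.130 to 0.248 CPM. Gene positions and overlaps came from GENCODE vM21. Copies are transcripts with at least 95% identity over at least 200 bases. There were 7 members with such a copy and 16 overlapped on the other strand. On data simulated for the γδ diet comparison, 16-fold changes were recovered in 11 of 50 genes, and 2 of 15433 unchanged genes were called. The simulation gave all groups the same spread per gene, while the real γδ MCD libraries scattered more. These figures therefore do not give the recovery or false calls of the real comparison.

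The members, their roles and the marker lists were chosen with earlier results of these data known. Values per library are given for members called, for the 3 most abundant of each role and, per comparison, for up to 3 higher and 3 lower non-overlapping members with the largest log2 fold change and at least 5 CPM in the higher group. Members described further, such as Scap, Hmgcs1, Lss, Lipa in knockout cells and Plin2 in γδ T cells, were chosen after their values were seen. Alternatives were RLE scaling, DESeq2 1.42.0, no filter, only the groups compared, a replicate block in knockout libraries, log2 of FPKM plus 1 and leaving out each library.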

Additional observations from a re-analysis of the deposited data

How the results depend on the processing

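Counts of called members varied with the library left out and with the tool. For the γδ diet comparison, with 0 called in edgeR, DESeq2 called 11 and the fit with no filter 8 (2.14% of all genes), while leaving out 1 library gave 0 to 12. For γδ over CD4+ T cells of WT mice on MCD, with 5 called, DESeq2 called 17, the fit with no filter 10 (4.14%) and the fit of only the groups compared 0, and leaving out 1 library gave 0 to 17. On control diet, with 0 called, DESeq2 called 3 and no filter 2 (1.37%), and leaving out 1 library gave 0 to 2. The interaction of diet and cell type, with 0 called, had 5 in DESeq2 and 0 to 6 when 1 library was left out. In the diet comparisons of CD4+ T cells, both genotype comparisons and the interaction of diet and genotype, 0 members were called under every alternative run. Fits without either γδ MCD library make the lone library of that group vary like the other groups. RLE scaling called the same 5 members as TMM. The 5 calls had adjusted p up to 0.209 for Dhcr7, 0.173 for Fads1, 0.160 for Lpl and Lipa and 0.194 for Acadm over the alternatives, with no change of direction. The causes of these shifts were not tested. The labels do not say whether the numbers 1 and 2 of the knockout libraries pair samples. Deviations of these libraries from group means had a correlation of -0.000833 across genes, which cannot decide it. With the replicate block in the knockout diet comparison 0 members were called, 3 had an unadjusted p under 0.05, and 7 genes were called in all, against 6 without the block. With 2 libraries a group and few counts for sterol enzymes in γδ MCD, changes of moderate size may have gone undetected.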
